A study of Mus musculus with 8 samples.

Results

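The genes described are 41 of the 20976 genes in the table: the breast cancer genes Brca1 and Brca2 with their partners, strand invasion genes, Fanconi anaemia genes, end resection factors, RecQ helicases, junction nucleases, checkpoint kinases, the uracil glycosylase gene Ung and Polq. They were chosen by gene symbol as a functional list, with earlier results of these data known. Comparisons of the list with all genes are therefore descriptions. All 41 were found and passed the filter on low values. The libraries came from cultured muscle stem cells, the satellite cells that rebuild muscle fibres, sorted by flow cytometry from mice with Chd4LoxP/LoxP alleles and expanded in medium with fetal calf serum and bFGF. In the 4 Cre libraries the cells had received an adenovirus carrying Cre recombinase, which deletes Chd4 exons 12 to 21. In the 4 GFP libraries the cells, which carry the same floxed alleles, had received a GFP adenovirus instead, and no library combined Cre with a Chd4 gene lacking loxP sites. Each group was replicated with 4 mice, per the series' design text, and the sources used here give no age for them and do not say whether libraries of the same number share a mouse.

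Values are whole-number reads per gene, already adjusted for library size in the deposited table, and are called normalised reads below. Library totals lay between 27897860 and 28876348, and low whole numbers that no gene takes, or that too many take, put the depth before that adjustment at 23.3 to 38.0 M reads. Chd4 checked the labels, with 3686, 5480, 5010 and 5134 normalised reads in Cre libraries 1 to 4, against 17886, 15904, 16634 and 20121 in GFP libraries 1 to 4. The muscle stem cell markers Pax7, Myf5, Myod1, Des, Cdh15, Itga7 and Vcam1 were detected in both groups and summed to 93813 to 112051 normalised reads in Cre and 92447 to 100684 in GFP, a sum made up mainly of Myod1 and Des. With library numbers as pairs, Myf5 (log2 change -0.57), Vcam1 (-0.30) and Pax7 (-0.14) were called lower and Myod1 (0.20) and Des (0.17) higher, and without pairing 0 of the 7 were called. Of all 12910 genes tested, 21.7% were called lower and 22.2% higher with the pairs.

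Homologous recombination repairs a broken chromosome by copying the sister chromatid, which is present only after replication. The broken ends are first resected to single strands, which BRCA2, helped by BRCA1 and PALB2, prepares for invading the sister, and the joined intermediates are later resolved by helicases and nucleases. The Fanconi pathway deals with crosslinked DNA at replication forks: its core complex attaches ubiquitin to FANCD2 and FANCI, which recruit nucleases and the recombination machinery. Many of these genes are transcribed mainly in dividing cells around S phase.

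All 41 repair genes had a lower mean log2 level in Cre than in GFP, and their median log2 change was -0.66, which is 63.4% of the GFP level, beside a median of -0.00 over all 12910 genes tested. Changes are differences in mean log2(value + 1), Cre minus GFP. The lowest was -1.15 for Eme1, and the change nearest 0 was -0.03 for Fancg. Of all genes tested, 2.76% had a change at or below the median of the repair genes. In total RNA of a culture, fewer cells that express a gene and less RNA per cell cannot be told apart.

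The test without pairing called none of them. With limma on 4 against 4 libraries, 0 of 41 repair genes passed a Benjamini-Hochberg adjusted p of 0.05 over all genes tested, while 0.248% of all genes tested were called lower and 0.837% higher. The adjusted p of the repair genes ran from 0.0870 for Chek2 to 0.952 for Fancg, 19 were lower and 0 higher at an unadjusted p under 0.05 (9.3% of all genes tested were lower by that rule), and limma with voom also called 0. The groups did not overlap for 7 repair genes (Xrcc2, Chek2, Nbn, Atm, Rad50, Fancm and Fance), each lower in Cre, and 6.17% of all genes tested were lower without overlap.

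The spread between libraries of a group was shared by Cre and GFP libraries of the same number. Cre library 1 was the lowest of the Cre libraries for 32 of 41 repair genes, and GFP library 1 the lowest of the GFP libraries for 34, while GFP library 4 was the highest of its group for 38. The median range within a group was 1.07 log2 units among the Cre libraries and 0.93 among the GFP libraries, and for 34 repair genes the range among the GFP libraries was larger than the change between the groups. Between same-numbered libraries, 38 of 41 were lower in Cre in 4 of 4 pairs, against 27.6% of all genes tested. A model that also fits the library number as a block, the paired model below, called 36 of 41 repair genes lower and 0 higher, where it called 21.7% of all genes tested lower and 22.2% higher. The 5 genes it did not call were Fance, Rbbp8, Mus81, Mre11a and Fancg. Leaving out Cre library 1 while keeping its GFP partner moved the change of 17 of the 36 called genes by over 1.5 times, to values of -0.70 to -0.10, among them Rad51b at -0.34, Brca2 at -0.28 and Wrn at -0.10. Leaving out GFP library 4 alone moved Rad51c, Xrcc3, Blm, Wrn and Slx4 that far, to -0.35 to -0.22, and leaving out any whole pair moved 0 of the 36.

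**Figure D1:**
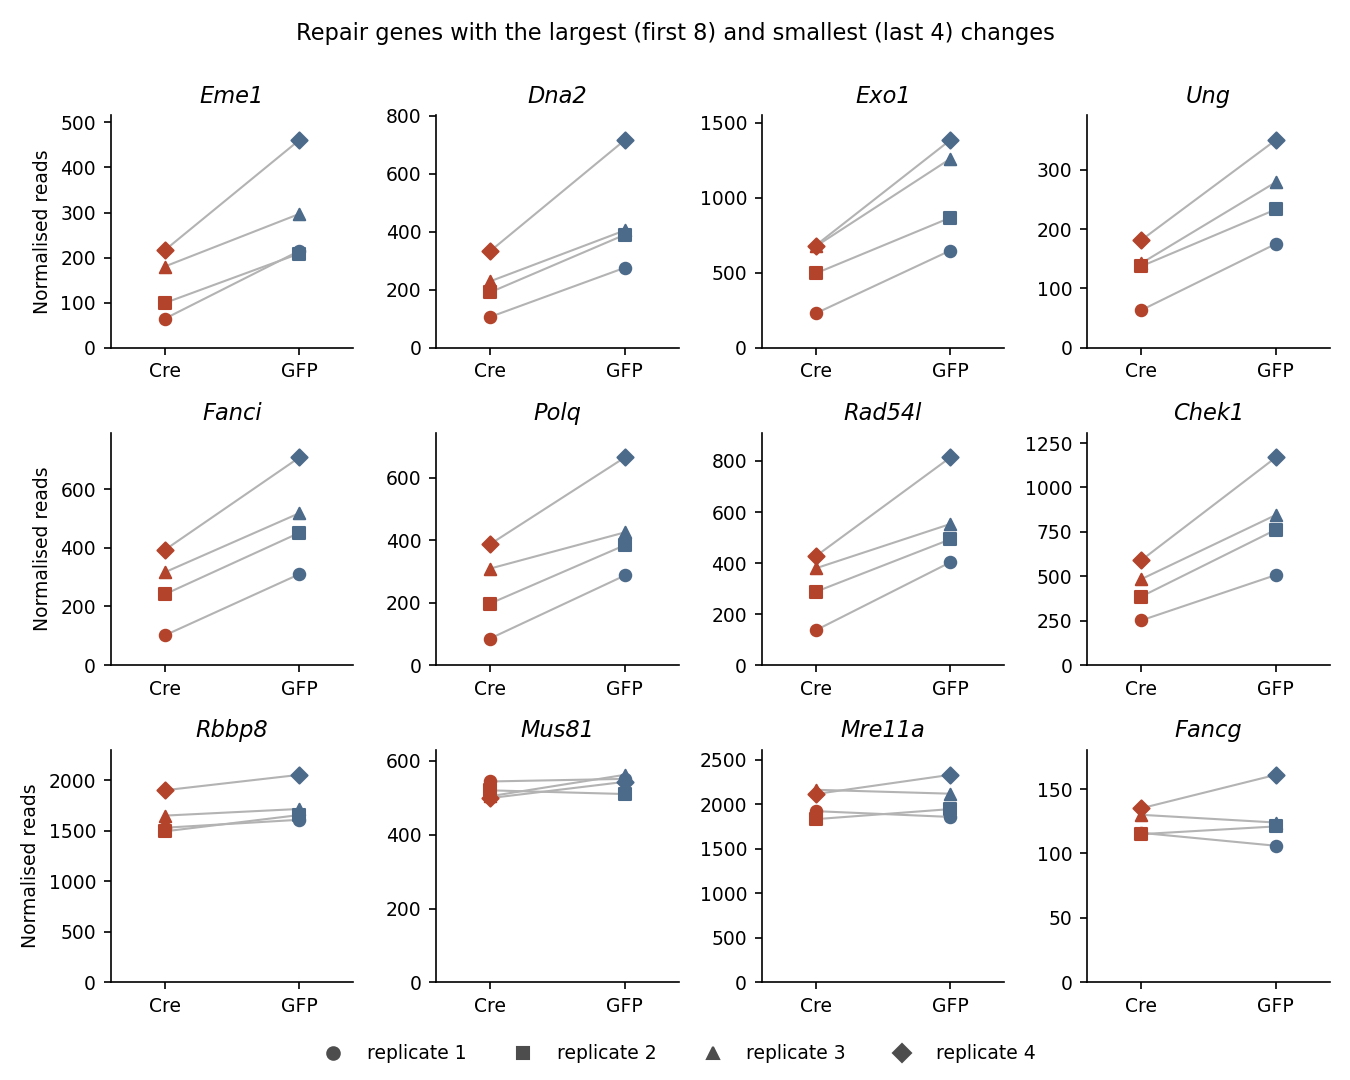
Normalised reads (vertical axes, from 0) in each Cre (left) and GFP (right) library for the 8 repair genes with the largest decreases and the 4 with the smallest changes, where lines join libraries of the same number. In the first 8 genes all 4 lines run lower on the Cre side while the points of the groups overlap, and in the last 4 the lines are nearly flat.

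Proliferation markers moved with the repair genes. Of 30 such markers, including Mki67, Top2a, Pcna and the MCM helicase genes, the paired model called 30 lower and the unpaired model 0. Over all genes tested, 21.7% were called lower in the paired model. The median log2 change of the markers was -0.74, with a range of -1.14 to -0.52. The proliferation antigen gene Mki67 measured 2101, 4740, 6873 and 7717 normalised reads with Cre, against 5797, 8656, 11663 and 14383 with GFP (libraries 1 to 4 of each group, the order used throughout). Relative to each gene's own mean over the 8 libraries, the median level of the repair genes was 49.3, 74.9, 86.6 and 99.4% in Cre libraries 1 to 4, against 88.0, 112, 122 and 163% in GFP libraries 1 to 4. For the proliferation markers the same median was 40.5, 71.0, 83.4 and 101.9% with Cre, against 84.4, 107, 134 and 173% with GFP. Both lists thus had the same order of libraries within each group. In pairs 1 to 4 the median change was -0.79, -0.54, -0.50 and -0.70 for the repair genes and -1.05, -0.60, -0.66 and -0.67 for the proliferation markers. How far the level of proliferation accounts for the repair genes' changes was not tested.

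**Figure D2:**
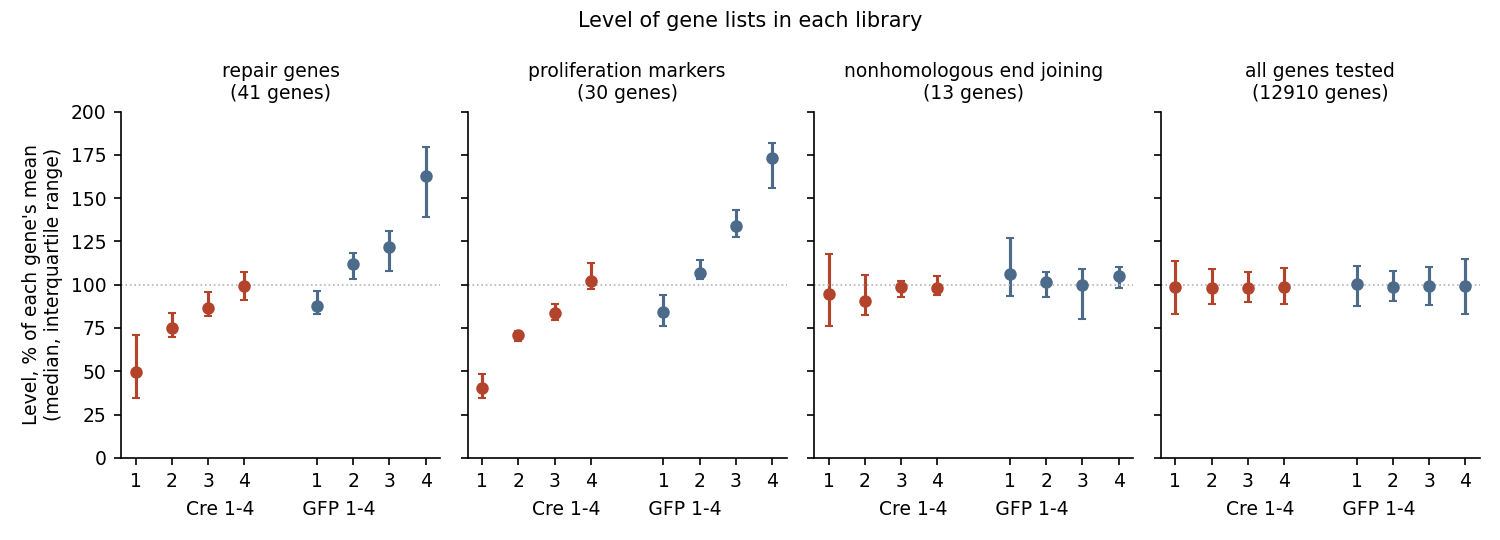
Median level in each library as a percentage of each gene's mean over the 8 libraries (vertical axis), with the interquartile range over genes as bars, for the repair genes, proliferation markers, nonhomologous end joining genes and all genes tested, Cre libraries left and GFP libraries right. The repair genes run between 49.3 and 163% in the same order as the proliferation markers, while all genes tested stay near 100%.

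Other cell types were checked by their markers. The 5 differentiation markers Myog, Mymk, Ckm, Acta1 and Myh3 rose in the paired model in 5 of 5 cases, where 22.2% of all genes tested were called higher, and the unpaired model called 0 of them (adjusted p from 0.586 to 0.894). Their log2 changes were 0.26 to 0.46, and their sums ran from 55784 to 208067 normalised reads in Cre and from 42849 to 177694 in GFP. Fibroblast markers (Pdgfra, Dcn and Col1a1) summed to 284 to 502 in Cre and 114 to 165 in GFP. Their means in Cre and GFP were 122 and 119 for Pdgfra, 5.5 and 6.5 for Dcn, and 249.5 and 12.5 for Col1a1. Endothelial markers (Pecam1, Cdh5 and Kdr) summed to 95 to 162 in Cre and 62 to 110 in GFP. Leukocyte markers (Cd68 and Itgam) summed to 89 to 396 in Cre and 28 to 243 in GFP, and Cd68 rose by 1.00 in the paired model (adjusted p = 0.000369, unpaired 0.535). Dcn, Cdh5, Kdr, Itgam and Myh11 were among the genes removed by the filter on low values. The pericyte markers Rgs5, Acta2 and Myh11 summed to 55417 to 87297 in Cre and 24361 to 44513 in GFP. Of these, Rgs5 was called higher in both models, as was Col1a1 among the fibroblast markers. Acta2 and Pdgfra were called in neither model (log2 changes 0.01 and 0.04). The mean of Acta2 was 29084 in Cre and 29165.5 in GFP, and that of Myh11 was 6.25 and 5.25, so the pericyte sum differed through Rgs5. Lum, Ptprc and Adgre1 were looked up by symbol and not found, so the leukocyte sum rests on Cd68 and Itgam only. The part of these cell types in the result was not tested.

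Promoter sequences were compared because genes of this pathway are textbook targets of E2F factors, which bind near the start sites of genes of the G1 to S transition. RefSeq promoter windows on GRCm38.p6, from 250 bases before to 50 after the start, were found for 32 of the 41 repair genes. The E2F letters searched were TTCCCGC, then TTCGCGC, then TTGCCGC and finally TTGGCGC, on both strands, and they were present for 16 of 32 repair genes (50%), against 19.7% of 9745 tested genes with a window and 10.9% of all 27025 genes with one. The 16 repair genes with the letters had a median log2 change of -0.63 (range -1.02 to -0.03). The 16 without them had a median of -0.57 (range -1.15 to -0.04). The part of E2F factors in these changes was not tested. The CHR letters TTTGAA, known from G2 and M phase genes, were present for 4 of 32 (12.5%), against 13.8% of tested genes. Those 4 were Eme1, Polq, Rad51b and Bard1, with a median change of -0.91 beside -0.58 for the other 28. The NF-Y letters CCAAT were present for 18 of 32 (56.2%), against 42.9% of tested genes, with a median change of -0.59, and -0.75 for the 14 without them. A match of letters is a description of the window and not a site.

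Of the windows below, the first 3 hold the E2F letters (Fanci and Polq, with large decreases, and Fancg, with the change nearest 0) and the last 3 do not (Eme1 and Dna2, with the largest decreases, and Mre11a, with a change near 0). Capitals mark any match to the E2F, CHR or NF-Y letters, and each window is written in the direction of the gene.
Fanci (chr7:79392088-79392387, plus strand): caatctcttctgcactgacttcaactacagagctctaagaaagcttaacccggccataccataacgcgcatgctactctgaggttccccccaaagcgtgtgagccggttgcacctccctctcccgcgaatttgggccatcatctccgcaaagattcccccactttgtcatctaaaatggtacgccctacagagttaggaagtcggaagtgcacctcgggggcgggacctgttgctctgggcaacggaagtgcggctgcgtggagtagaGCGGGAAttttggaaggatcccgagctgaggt
Polq (chr16:37011536-37011835, plus strand): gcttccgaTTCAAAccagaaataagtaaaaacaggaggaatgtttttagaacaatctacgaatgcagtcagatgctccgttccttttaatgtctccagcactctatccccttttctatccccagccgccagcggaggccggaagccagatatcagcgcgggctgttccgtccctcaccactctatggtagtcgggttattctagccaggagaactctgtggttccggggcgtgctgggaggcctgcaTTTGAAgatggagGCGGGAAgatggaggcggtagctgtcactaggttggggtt
Fancg (chr4:43010252-43010551, minus strand): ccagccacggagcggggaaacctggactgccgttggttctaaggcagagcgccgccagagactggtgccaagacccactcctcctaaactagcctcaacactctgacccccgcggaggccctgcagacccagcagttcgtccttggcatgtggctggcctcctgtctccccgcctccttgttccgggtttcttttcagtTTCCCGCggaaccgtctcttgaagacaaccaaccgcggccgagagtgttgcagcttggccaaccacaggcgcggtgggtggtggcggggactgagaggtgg
Eme1 (chr11:94653694-94653993, minus strand): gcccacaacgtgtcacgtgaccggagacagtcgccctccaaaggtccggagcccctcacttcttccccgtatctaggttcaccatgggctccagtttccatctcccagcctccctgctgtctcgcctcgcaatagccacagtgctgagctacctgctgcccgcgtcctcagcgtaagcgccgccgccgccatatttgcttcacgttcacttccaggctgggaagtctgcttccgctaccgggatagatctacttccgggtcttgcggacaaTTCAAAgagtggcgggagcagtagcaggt
Dna2 (chr10:62946779-62947078, plus strand): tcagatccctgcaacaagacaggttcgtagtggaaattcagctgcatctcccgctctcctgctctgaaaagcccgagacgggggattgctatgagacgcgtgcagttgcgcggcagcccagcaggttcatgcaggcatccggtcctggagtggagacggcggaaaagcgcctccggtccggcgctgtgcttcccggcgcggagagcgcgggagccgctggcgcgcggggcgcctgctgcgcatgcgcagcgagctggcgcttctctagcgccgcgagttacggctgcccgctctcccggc
Mre11a (chr9:14784404-14784703, plus strand): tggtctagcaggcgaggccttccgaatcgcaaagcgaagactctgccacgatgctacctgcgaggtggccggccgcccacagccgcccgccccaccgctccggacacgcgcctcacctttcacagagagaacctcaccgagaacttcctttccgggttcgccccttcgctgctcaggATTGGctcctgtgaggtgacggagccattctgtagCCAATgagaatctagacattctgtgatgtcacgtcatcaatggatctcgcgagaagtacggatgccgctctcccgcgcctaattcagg
In Fanci the E2F letters begin at base 19 and in Polq at base 11 of the transcript, on the reverse strand in both, and in Fancg they lie 51 bases before the start. The start of Polq also carries TTTGAA, 3 bases before it. The window of Dna2 holds no match to any of the letters searched.

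The genes of end resection and the RecQ helicases covered nearly the whole range of changes. Of 8 genes, the paired model called 6 lower, where 21.7% of all genes tested were called lower, and the unpaired model called none. Dna2, a nuclease and helicase of long-range resection, measured 106, 191, 229 and 333 normalised reads with Cre, against 276, 390, 405 and 717 with GFP. Its log2 change was -1.08 ± 0.10 (SE of the paired model, adjusted p = 2.45e-05). Exo1, the other long-range resection nuclease, measured 228, 495, 675 and 681 normalised reads with Cre, against 648, 867, 1260 and 1385 with GFP. Its change was -1.06 ± 0.10 (paired adjusted p = 3.02e-05). For both genes each Cre library was lower than the GFP library of its number, and the highest Cre libraries lay above the lowest GFP library. Dna2 was at 40.7 to 55.0% of the GFP level by the 95% interval of the paired model and Exo1 at 41.2 to 56.0%.

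Of the 3 subunits of the complex that starts resection, the paired model called Rad50 and Nbn lower and did not call Mre11a. Mre11a encodes its nuclease and measured 1924, 1834, 2164 and 2116 normalised reads with Cre, against 1859, 1947, 2120 and 2332 with GFP. It was lower in 2 of 4 pairs, with a log2 change of -0.04 (95% interval of the paired model -0.15 to 0.07, adjusted p = 0.577). Rad50, the ATPase subunit, fell by 0.41 in the paired model (adjusted p = 0.000199) and Nbn, which links the complex to ATM, fell by 0.65 (adjusted p = 6.07e-05). Both had groups without overlap. Within pairs, the change of Nbn minus that of Mre11a ran from -0.73 to -0.51 log2 units, and that of Rad50 minus Mre11a from -0.56 to -0.27. These pairs of subunits were chosen after their values were seen, so the differences are descriptions. Rbbp8, which encodes the nuclease cofactor CtIP, measured 1532, 1496, 1652 and 1903 with Cre, against 1611, 1658, 1718 and 2056 with GFP. Its change was -0.10, lower in 4 of 4 pairs (95% interval -0.20 to 0.00, adjusted p = 0.106), and it did not pass. Of the RecQ helicase genes, Blm fell by 0.59 (paired adjusted p = 0.00047) and Wrn by 0.36 (adjusted p = 0.00516). In humans these genes are mutated in Bloom and Werner syndrome.

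The junction nucleases held both the largest decrease and a gene with hardly any. Eme1, the partner that activates the MUS81 nuclease, measured 64, 99, 180 and 216 normalised reads with Cre, against 215, 209, 297 and 461 with GFP. Its log2 change was -1.15 ± 0.15 (paired adjusted p = 0.000155), and Cre library 4 was the only Cre library that reached the range of the GFP libraries. Mus81, the catalytic subunit, measured 544, 520, 504 and 499 normalised reads with Cre, against 551, 510, 562 and 543 with GFP. Its change was -0.07 (95% interval -0.21 to 0.08, paired adjusted p = 0.441), and the groups overlapped. The change of Eme1 minus that of Mus81 ran from -1.71 to -0.56 log2 units over the 4 pairs, a comparison also chosen after the values were seen. Gen1, a Holliday junction resolvase, measured 266, 542, 635 and 854 with Cre, against 650, 824, 966 and 1468 with GFP, a change of -0.82 ± 0.10 (paired adjusted p = 0.000155). Slx4, a scaffold that binds MUS81 and other nucleases, fell by 0.37 (adjusted p = 0.00061). Of these 4 genes the paired model thus called 3 lower, where it called 21.7% of all genes tested lower. The unpaired model called none of the 4.

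All 7 strand invasion genes fell in the paired model, which called 21.7% of all genes tested lower. The unpaired model called none of the 7. Rad54l, a motor protein of strand invasion, measured 136, 287, 379 and 426 normalised reads with Cre, against 403, 493, 553 and 814 with GFP. Its change was -0.95 ± 0.14 (paired adjusted p = 0.000318). Rad54b, its relative, measured 107, 203, 271 and 373 with Cre, against 264, 372, 395 and 611 with GFP, a change of -0.85 ± 0.12 (adjusted p = 0.000241). For Rad54l and Rad54b each Cre library was lower than its pair, and the groups overlapped. Rad51b, the least abundant of the 41 genes, had 13, 49, 58 and 63 normalised reads in the Cre libraries, against 35, 77, 95 and 101 in the GFP libraries, a change of -0.84 ± 0.18 (adjusted p = 0.00338). Its value in Cre library 1 rests on an estimated 13.3 original reads. Rad51ap1 fell by 0.81, Xrcc2 by 0.74 with no overlap between the groups, and Rad51c and Xrcc3 by 0.58 and 0.41 (paired adjusted p from 4.08e-05 to 0.00448). Rad51c and Xrcc3 encode the subunits of a single complex, and the difference between their changes ran from -0.64 to 0.37 over the 4 pairs.

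The 5 genes of BRCA1, BRCA2 and their partners fell in the paired model, by changes of -0.86 to -0.56. That model called 21.7% of all genes tested lower, and the unpaired model called none of the 5. Brip1, a helicase that binds BRCA1, measured 156, 315, 448 and 413 normalised reads with Cre, against 389, 583, 535 and 818 with GFP. Its change was -0.86 ± 0.14 (paired adjusted p = 0.000636), and its change in pair 3 (-0.26) was smaller than in the other pairs (-1.31 to -0.89). Palb2, which bridges BRCA1 and BRCA2, fell by 0.69, Bard1, the obligate partner of BRCA1, by 0.68, Brca1 by 0.60 and Brca2 by 0.56, with paired adjusted p from 8.12e-05 to 0.000336. The changes of Bard1 and Brca1 differed by -0.08 ± 0.09 (SD, 4 pairs), less than the spread over the pairs. Brca1 itself had 783, 1244, 1573 and 1621 normalised reads with Cre, against 1397, 1729, 2089 and 2610 with GFP, and the groups overlapped.

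In the Fanconi pathway all 3 genes of the ubiquitinated complex and its deubiquitinase fell in the paired model, and 6 of 8 core complex genes did. That model called 21.7% of all genes tested lower, and the unpaired model called none of these Fanconi genes. Fanci, which is ubiquitinated together with FANCD2, measured 101, 241, 316 and 392 normalised reads with Cre, against 310, 451, 518 and 708 with GFP. Its change was -1.02 ± 0.13 (paired adjusted p = 0.00017). Fancd2 fell by 0.82 (adjusted p = 2.45e-05), and Usp1, which removes the ubiquitin again, by 0.67 (adjusted p = 1.95e-05). The median change was -0.41 over the 8 core complex genes, beside -0.82 over Fanci, Fancd2 and Usp1. The scaffold genes Fanca and Fancb fell by 0.69 and 0.66, Fancc by 0.46, Fancf by 0.42, the translocase Fancm by 0.41 and the ubiquitin ligase Fancl by 0.27 (adjusted p = 0.0453). Of these calls, that of Fancl was lost in 5 of 9 alternatives of the paired model, when any single pair or the filter was left out (adjusted p up to 0.175), and that of Fancf in 2, without pair 3 or pair 4 (adjusted p up to 0.0814). Fance, a bridge between the core complex and FANCD2, had a change of -0.22 (adjusted p = 0.0568) and lay just outside the threshold, with groups that barely parted, at 393 to 449 normalised reads in Cre and 453 to 557 in GFP. Fancg measured 116, 115, 130 and 135 normalised reads with Cre, against 106, 121, 124 and 161 with GFP, and was lower in 2 of 4 pairs (change -0.03, 95% interval -0.29 to 0.22, adjusted p = 0.846). The difference between the median changes of the core genes and their targets was not tested.

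The 4 checkpoint kinases fell in the paired model, where 21.7% of all genes tested were called lower, and the unpaired model called none of the 4. Chek1, the effector kinase of the replication checkpoint, measured 251, 385, 483 and 589 normalised reads with Cre, against 507, 762, 845 and 1169 with GFP. Its change of -0.95 ± 0.07 (adjusted p = 5.92e-06) ran from -1.01 to -0.81 over the 4 pairs, the narrowest range among the 12 largest decreases. Chek2, the effector kinase activated by ATM, fell by 0.67, and Atm, the kinase that senses double-strand breaks, by 0.54, and for both the groups did not overlap. Atr, which senses single-stranded DNA, fell by 0.32 (adjusted p = 0.00102). The change of Chek1 minus that of Chek2 ran from -0.33 to -0.22 log2 units over the 4 pairs, and that of Atm minus Atr from -0.44 to -0.07, both described after the values were seen.

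The remaining members were Ung, which excises uracil from DNA, and Polq, the polymerase of microhomology-mediated end joining. Ung measured 63, 137, 142 and 181 normalised reads with Cre, against 175, 233, 279 and 350 with GFP, a change of -1.03 ± 0.12 (paired adjusted p = 0.000111). Polq measured 85, 197, 309 and 387 with Cre, against 287, 384, 425 and 665 with GFP, a change of -0.99 ± 0.17 (adjusted p = 0.000888). Its change ran from -1.74 in pair 1 to -0.46 in pair 3.

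**Figure D3:**
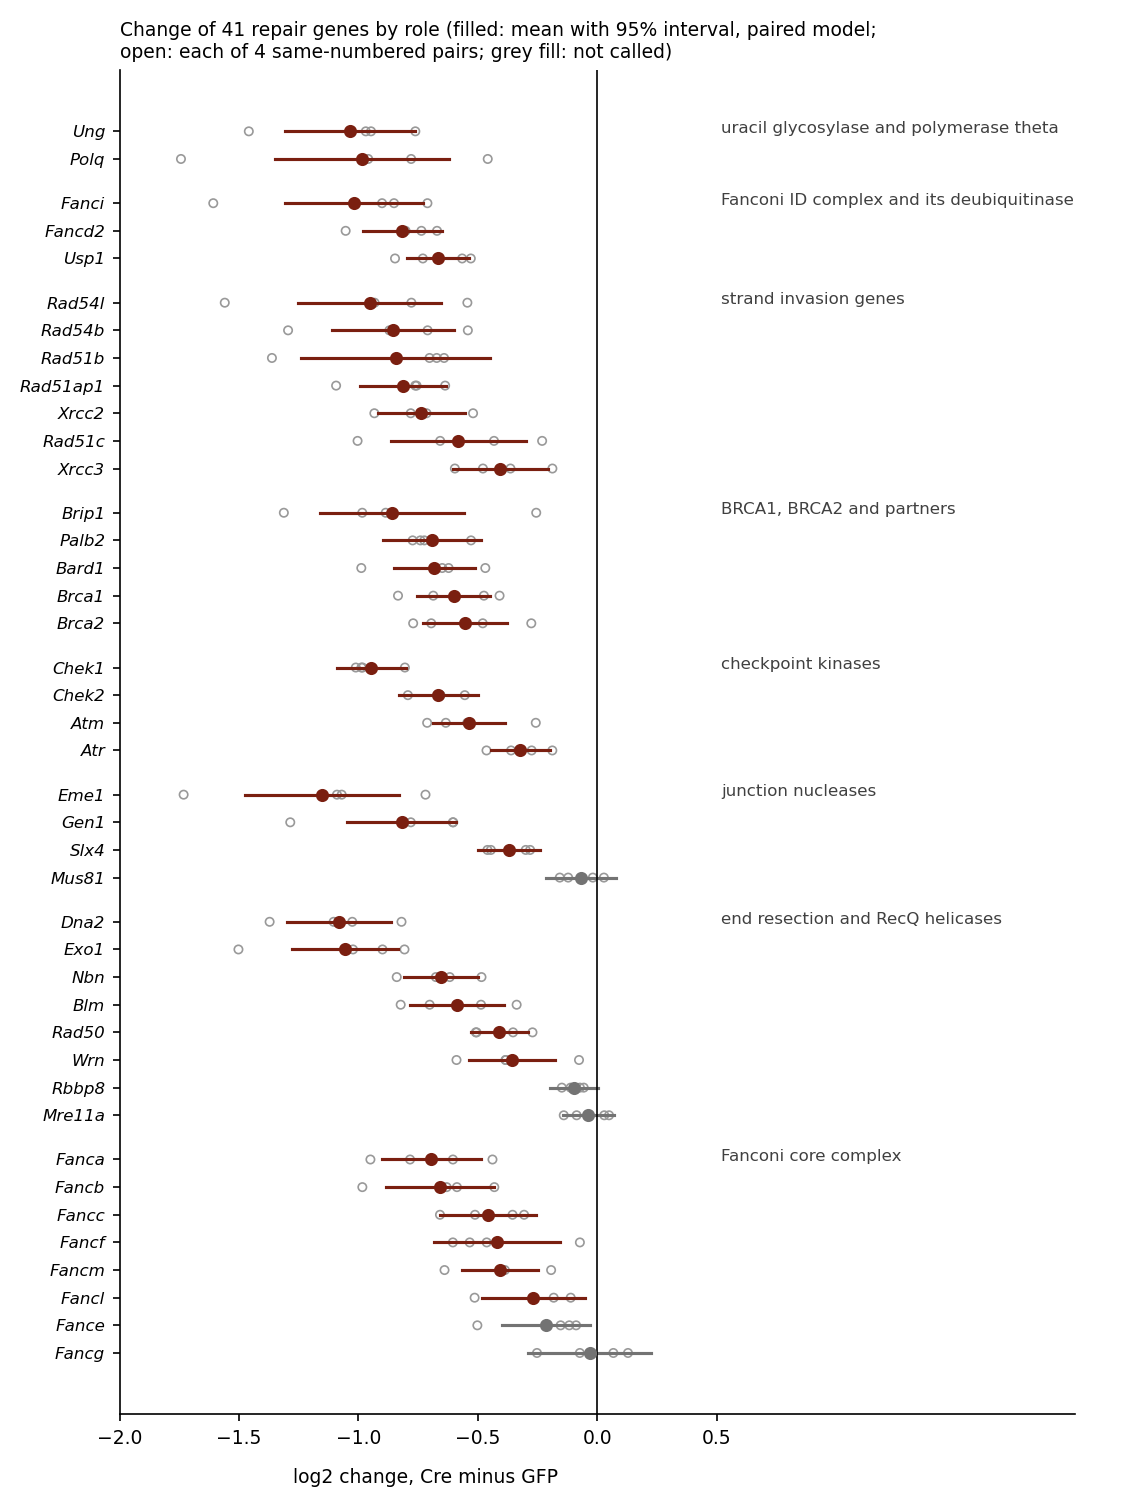
Log2 change, Cre minus GFP (horizontal axis), of the 41 repair genes grouped by role, with the mean and its 95% interval from the paired model as filled points and bars and each of the 4 same-numbered pairs as open points. The 36 dark points are called in the paired model and lie left of 0, and the 5 grey ones, Mus81, Rbbp8, Mre11a, Fance and Fancg, are not called after adjustment over all genes tested.

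Set against the length of their annotated exons, the members also differed in level. This length joins the exons of all annotated transcripts of a gene, so the order of genes depends in part on the annotation. In the GFP libraries Usp1 was the highest, at 646 normalised reads per kilobase of exon, followed by Rad50 at 373, Mre11a at 348, Nbn at 317 and Atm at 259. The lowest were Palb2 at 36.2, Fancc at 36.0, Fancg at 33.7 and Rad51b at 20.5 normalised reads per kilobase. In the Cre libraries the same measure was 411 for Usp1, 281 for Rad50, 339 for Mre11a, 202 for Nbn and 179 for Atm, so Mre11a stood above Rad50 in Cre and below it in GFP. In GFP the levels of Rad50, Mre11a and Nbn, and those of Palb2, Fancc and Fancg, lay within the spread between libraries of their neighbours in this order. Among the members not called were both an abundant gene, Mre11a, and a scarce gene, Fancg.

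Some members share exons with other genes, and the sources used here do not say whether reads were counted by strand. For 6 members at least 10% of the exon length is shared with another gene of the table: Rad54b with Fsbp on the same strand, and Rad54l with Lrrc41, Fanca with Zfp276, Fancf with Gas2, Fancl with Vrk2 and Fanci with Polg on the opposite strand. The shared part is 35.8% of the exon length of Rad54b and between 10.5 and 16% for the other 5. Some of these neighbours are more abundant, such as Polg, with a mean of 1839 normalised reads over the 8 libraries beside 380 for Fanci, and Lrrc41, with 2876 beside 436 for Rad54l. Eme1 shares 221 bases of its 2762 exonic bases with Lrrc59, on the opposite strand, which had a mean of 8333 beside 218 for Eme1. The values of these genes are uncertain, and the share of their reads that came from a neighbour was not tested.

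Other repair pathways were described by lists chosen by function. Over all genes tested, the paired model called 21.7% lower and 22.2% higher. Of 40 tested genes of homologous recombination and the Fanconi pathway outside the 41, the paired model called 27 lower and 2 higher, with a median change of -0.33. Examples were the single-strand binding genes Rpa1 at -0.62 and Rpa2 at -0.51, the helicase Rtel1 at -0.57 and the strand exchange cofactor Psmc3ip at -0.75 (adjusted p from 2.77e-05 to 0.000105), and the 2 that rose were Sfr1 and Rev3l, by 0.15 and 0.18. Of 20 checkpoint and damage signalling genes, 14 were lower and 0 higher, with a median of -0.36, among them Clspn, which brings CHEK1 to ATR, at -1.14, Mdc1 at -0.74, Tipin at -0.70 and Topbp1 at -0.46. Of 18 base excision repair genes 7 were lower, such as Lig1 at -0.82, Neil3 at -0.81, Mutyh at -0.96 and Parp1 at -0.42, and 1, Polb, was higher. The mismatch repair genes Pms1, Msh6 and Pms2 fell by 0.83, 0.61 and 0.44.

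End joining and nucleotide excision repair had median changes near that of all genes tested. Of 13 nonhomologous end joining genes, which rejoin broken ends directly, the paired model called 4 lower and 2 higher, with a median change of 0.02. The share called lower was 30.8%, where 21.7% of all genes tested were called lower and 22.2% higher. Rif1 fell by 0.38, Poll by 0.37 and Xrcc6, which encodes Ku70, by 0.36, while Trp53bp1 rose by 0.23, in 4 of 4 pairs (adjusted p = 0.00171). Of 18 nucleotide excision repair genes 2 were lower, Ercc6 and Ercc1, by 0.43 and 0.39, and 3 were higher, including the damage sensor Xpc by 0.24 and Ercc5 by 0.17, with a median of -0.06. The unpaired model called 0 genes in each of these 5 lists. The differences between the lists were not tested.

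**Figure D4:**
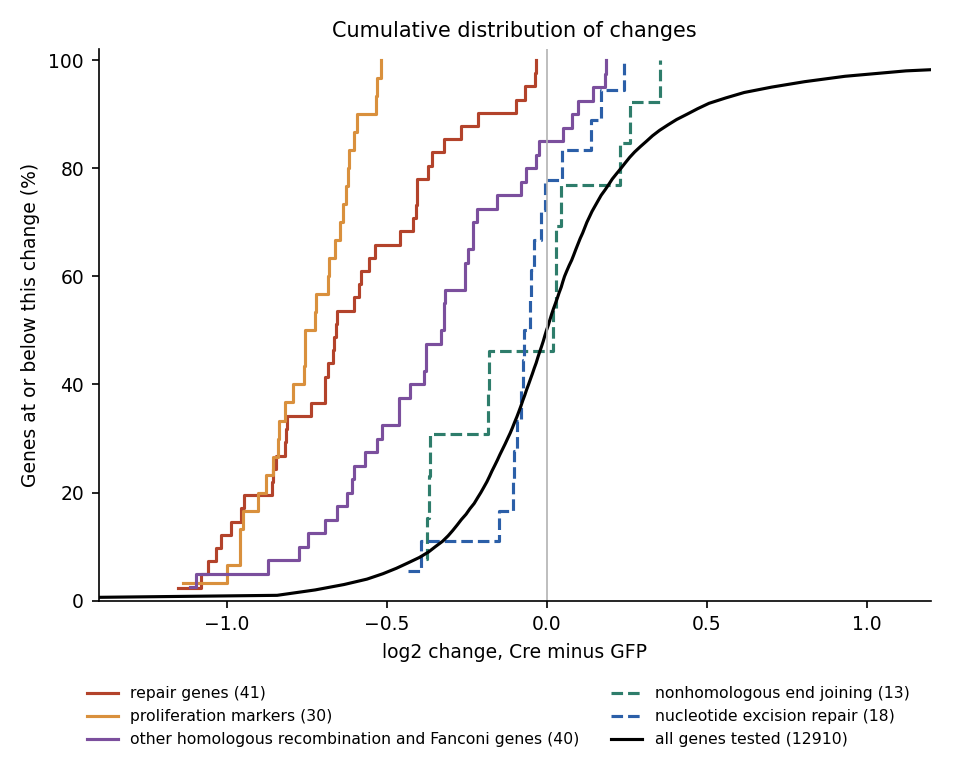
Percentage of genes (vertical axis) at or below a given log2 change, Cre minus GFP (horizontal axis), for the 41 repair genes, 4 other lists and all 12910 genes tested. The repair genes reach 50% near their median of -0.66, close to the proliferation markers at -0.74, the other recombination and Fanconi genes near -0.33, and the end joining and nucleotide excision lists near 0 with all genes.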

How the data were processed

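Total RNA was sequenced with a stranded protocol from 4 Cre and 4 GFP libraries, per the labels' protocols. The submitters' processing notes list STAR 2.5.3a, Subread, featureCounts 1.5.3 and DESeq, and give GRCm38 and mm10 as builds. Their order, settings and strand use were not given in the sources used here. The deposited table was handled in the unit score, because its whole numbers look like reads rescaled and rounded: totals are nearly equal, and low whole numbers are missing or doubled at regular steps. The scaling was kept, and the original depth was estimated from those steps, a procedure tested on simulated data.

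Genes with at least 1 CPM in 4 libraries were kept (12910, with 8066 removed), and log2(value + 1) was fitted with limma 3.58.1 in R 4.3.3, allowing the variance to follow the mean level, with two-sided p and Benjamini-Hochberg adjustment over all genes tested. Fold changes on this scale are understated for low genes. The labels do not say that numbers pair libraries. After subtracting group means, libraries of the same number had correlations of 0.820 to 0.908 and other Cre and GFP libraries -0.597 to 0.477, so the numbers were taken as pairs, from these correlations and not from any label, and a fit blocked on the library number stands beside the unpaired fit. Replicates differed by far more than sampling noise (chi-square per degree of freedom 23.4 to 132). In simulated Cre against GFP libraries with 12910 genes, the fit without the block recovered 5.97% of genes changed 1.5-fold and 41.8% of those changed 2-fold, and the fit with it 89.6% and 100%, pairing being built into the simulation. The simulated noise within pairs was a set value, the same for all genes and not estimated from these libraries. The recovered shares hold for that noise only. Exon lengths came from GENCODE M21 on GRCm38, and tables and figures from Python 3.11.15 with numpy 2.4.6 and pandas 2.3.3.

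Values in every library are given for the 12 members with the most negative and the 4 with the most positive change, and of each other list up to 4 genes with the smallest paired p are named, with the genes that rose in some lists added after their values were seen. The members, lists and tests were chosen with earlier results of these data known. The counts of 2 further lists are not reported here.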

Additional observations from a re-analysis of the deposited data

Results flagged for a closer look

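Among 82 groups of 4 libraries (41 repair genes in Cre and in GFP), 4 held a library whose gap to the nearest other was large against the range of the group. By chance about 1 in 20 groups would. Atm at 3145, Fancm at 1169 and Slx4 at 1245 normalised reads in GFP library 4 stood above the other GFP libraries, and Xrcc3 at 376 in Cre library 4 stood above the other Cre libraries. GFP library 4 was the highest of its group for 38 of the 41 genes and also had the greatest estimated depth, 38.0 M reads. The part of depth in these values was not tested.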

How the results depend on the processing

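Without the block, 0 repair genes were called in all 15 alternatives run, with the log2 median between -0.76 and -0.44 (-0.44 without Cre replicate 1 and -0.50 without GFP replicate 4). With the replicate block, 36 were called lower. The count was 37 with voom and the block, 35 with no filter, 35 of 39 tested with a filter of 5 CPM (which leaves out Rad51b and Fancg), 36 with a pseudocount of 8, 36 with equal upper quartiles, and 34 to 36 when any single pair was left out. Of the 36 genes, 34 kept their call in every one of these alternatives that tested them. The other 2 were Fancf and Fancl. Fance gained a call with voom or without pair 1 (adjusted p down to 0.0319).

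Leaving out single libraries, the Fancg log2 change ran from -0.12 to 0.083 and the Mre11a log2 change from -0.0854 to 0.024. That of Fancg turned to 0.00 without Cre replicate 2, 0.083 without GFP replicate 4 and 0.041 in the paired model without pair 4, and that of Mre11a to 0.01 without Cre replicate 2 and 0.024 without GFP replicate 4. No other member changed sign.

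Over all genes tested, 108 were higher and 32 lower without the block. The counts were 10 to 51 higher and 1 to 7 lower when a single library was left out, which leaves a number without its partner, and 58 were higher with a filter of 5 CPM. The replicate block gave 2861 higher and 2804 lower. With the block, the counts were 2612 and 3199 with voom, 3123 and 2538 with no filter, 2353 and 2626 with a filter of 5 CPM, 2885 and 2812 with a pseudocount of 8, 2915 and 2802 with equal upper quartiles, and without pairs 1 to 4 in turn 2648, 2304, 2482 and 2238 higher with 2365, 2289, 2379 and 2100 lower. The median of all genes moved by at most 0.02 log2 units between scalings. Depth limits mainly Rad51b, the gene with the fewest reads.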
